A study of Mus musculus with 12 samples.

Results

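Kinetochore and centromere genes are described here as 37 mouse genes chosen by their symbols: CENP proteins, subunits of the KNL1, MIS12, NDC80, RZZ and SKA complexes, Spindly, shugoshins, and the checkpoint proteins Bub3, Mad1l1 and Mad2l1. All 37 were measured, among 23185 probe sets with 1 gene symbol. Members and comparison lists were chosen with earlier results of these data known. Their shares beside all probe sets or all genes therefore describe the lists and test nothing. Cenpj carries a CENP symbol, but its product is a centriole assembly factor, so it was kept apart from the kinetochore roles.

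The samples were female C57BL/6 mouse pluripotent stem cells, stained with TMRM, a cationic dye that accumulates in mitochondria according to their membrane potential, and sorted by flow cytometry. The 4 groups were iPSC with high and iPSC with low membrane potential, and ESC with high and ESC with low membrane potential, where iPSC are induced pluripotent stem cells and ESC embryonic stem cells. Every group held 3 Affymetrix arrays, numbered 2, 3 and 4 in the labels, and the labels give no line names, passage or gate limits. All cells were grown undifferentiated without feeders in serum-free 2iLIF medium on gelatin, so no group lacked the inhibitors and LIF of that medium. Nothing says that arrays of a group came from separate cultures, so the spread behind each p-value is that of these arrays and may be technical.

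The centromere is chromatin marked by the histone H3 variant CENP-A. On it sits the constitutive centromere-associated network, the inner kinetochore, which recruits the microtubule-binding KNL1, MIS12 and NDC80 complexes at mitosis. An outermost fibrous corona gathers motors and checkpoint proteins until chromosomes are attached, and the spindle assembly checkpoint delays anaphase meanwhile. Many of these mRNAs are cell cycle regulated, with levels rising toward G2 and mitosis, and pluripotent stem cells cycle quickly.

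Levels are log2 values after RMA (background correction, quantile normalization and summary of each probe set), and differences are log2 differences, where 1 means a doubling. The deposited values carry no detection calls. Array medians lay between 3.51 and 3.61, and the arrays correlated with each other at 0.986 to 0.994. The 10 pluripotency markers averaged between 8.32 and 8.57 in every array and the 10 fibroblast markers between 2.88 and 3.09, and limma called 0 of either list between the fractions (adjusted p under 0.05; at an unadjusted p under 0.05, 0 pluripotency and 2 fibroblast markers).

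Between the high and low fractions, 5 of the 37 genes rose and 0 fell when the differences in ESC and iPSC were averaged. They were Cenpl and Cenpf, with the largest differences, and Spdl1, Bub3 and Cenpe, with smaller ones. These 5 are 13.5% of the members, beside 1.6% of all 25206 probe sets called higher and 0.905% called lower in the same fit. The members were chosen with earlier results known, so these shares are descriptive. Most members also lay above the array medians of 3.51 to 3.61, and the probe sets were not matched to them for level. The other 32 members did not pass (limma, Benjamini-Hochberg adjusted p under 0.05 over all probe sets). For 30 of these the 95% interval of the difference lay within 0.5 of 0. That bound does not mark a gene as unchanged, since the interval of the called gene Cenpe, 0.19 to 0.49, also met it. The median difference was 0.12 over the 37 genes (0.0769 with each array centred on its median) and 0.00 over all probe sets, and 24 of the 37 differences were above 0, beside 50.9% of all probe sets. These are RNAs of whole sorted populations, in which fewer cells of a type and less RNA per cell cannot be told apart.

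**Figure D1:**
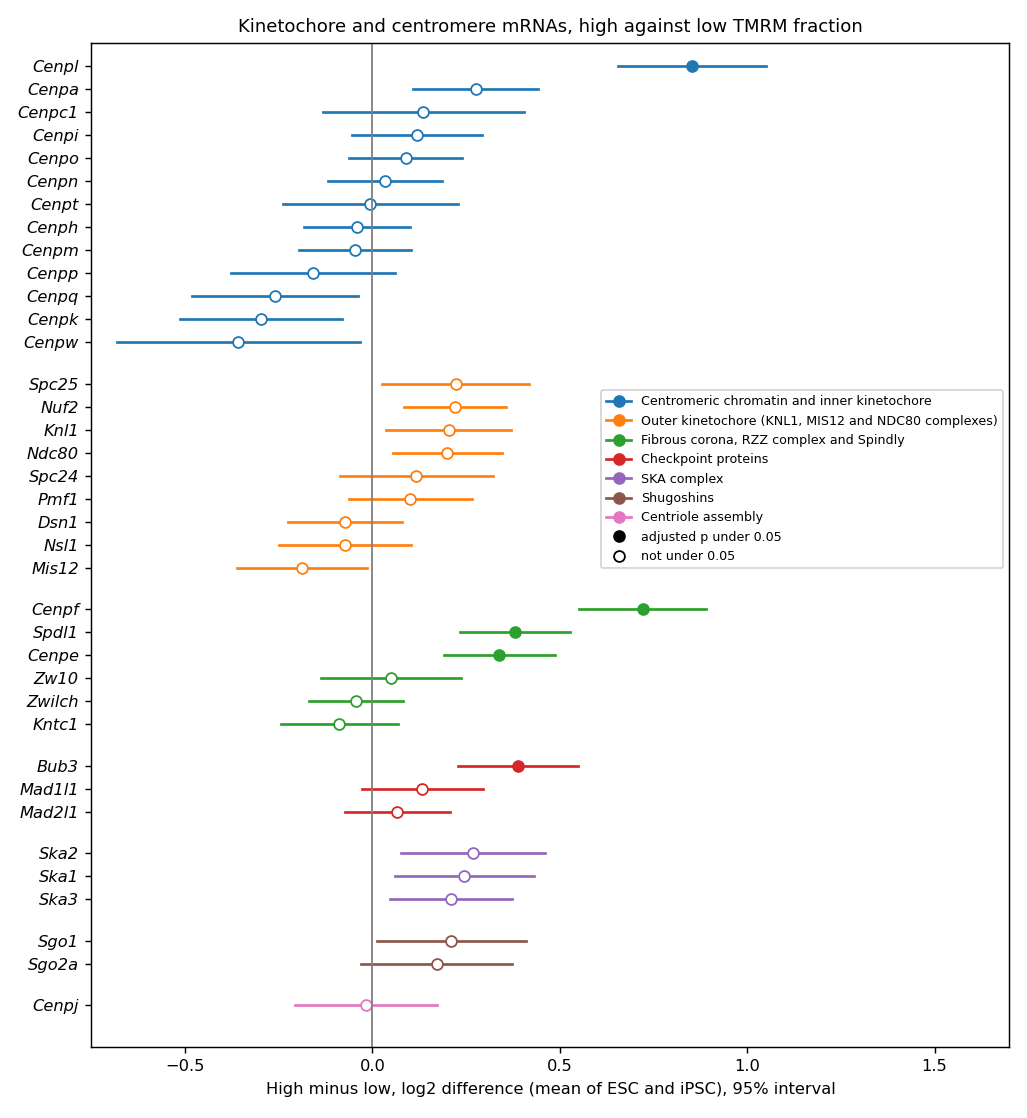
Difference between the high and low TMRM fractions for each of the 37 genes, grouped and coloured by role; the x axis is the log2 difference averaged over ESC and iPSC, and the lines are 95% intervals. Filled points passed the adjusted p of 0.05: Cenpl at 0.85, Cenpf at 0.72, Bub3 at 0.39, Spdl1 at 0.38 and Cenpe at 0.34.

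Among the 13 genes of centromeric chromatin and the inner kinetochore, Cenpl rose, 0 fell, and the median difference was -0.01. Of all probe sets, 1.6% were called higher and 0.905% lower. At an unadjusted p under 0.05 (limma), 2 of the 13 were higher and 3 lower, beside 15.6% of all probe sets in either direction. CENP-L forms with CENP-N the subcomplex of the inner kinetochore that binds CENP-A nucleosomes. Cenpl stood at 5.73, 5.69 and 5.58 in ESC high, against 4.59, 4.84 and 4.79 in ESC low. In iPSC it stood at 5.81, 5.61 and 5.88 in the high arrays, against 5.20, 5.03 and 4.71 in the low arrays. Every high array lay above every low array of the same cell type. The difference was 0.85 ± 0.09 (SE; 95% interval 0.66 to 1.05; limma adjusted p = 0.000547), which is 1.81-fold higher in the high fraction.

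Cenpn, the partner of Cenpl, showed no such separation. Its levels were 8.47, 8.28 and 8.41 in ESC high, against 8.47, 8.30 and 8.22 in ESC low. They were 8.40, 8.42 and 8.28 in iPSC high, against 8.38, 8.44 and 8.24 in iPSC low. The groups overlapped in both cell types, and the difference was 0.03 ± 0.07 (95% interval -0.12 to 0.19), an interval that does not reach that of Cenpl.

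Cenpa encodes the histone variant that defines the centromere. It stood at 7.78, 7.87 and 8.03 in ESC high, against 7.55, 7.62 and 7.70 in ESC low, and at 7.98, 7.64 and 7.75 in iPSC high, against 7.40, 7.55 and 7.58 in iPSC low. The high arrays lay above the low arrays in both cell types, but the difference of 0.28 ± 0.08 did not pass the adjustment (adjusted p = 0.0907). With a variance trend in the same fit, the adjusted p was 0.0473.

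The most negative differences of the whole set were also in the inner kinetochore, and 0 of them passed. Cenpw, whose product pairs with CENP-T in a histone-fold complex, had 3.53, 3.30 and 4.04 in ESC high, against 3.82, 3.90 and 4.26 in ESC low. In iPSC it had 3.40, 3.46 and 3.44 in the high arrays, against 3.40, 3.73 and 4.21 in the low arrays. The low arrays ran higher in every numbered pair, in iPSC pair 2 by less than the rounding shown, but overlapped with the high arrays in both cell types, and the difference was -0.36 ± 0.15 (95% interval -0.68 to -0.03; adjusted p = 0.265). Cenpk, of the CENP-H/I/K/M complex, had 3.70, 3.54 and 4.01 in ESC high, against 4.11, 4.05 and 4.07 in ESC low. In iPSC Cenpk had 3.78, 3.54 and 3.39 in the high arrays, against 3.65, 3.86 and 4.01 in the low arrays. The groups were apart in ESC and overlapped in iPSC, with a difference of -0.30 ± 0.10 (adjusted p = 0.156). Cenpq, of the CENP-O/P/Q/R/U complex, had 5.24, 5.36 and 5.50 in ESC high, against 5.65, 5.23 and 5.47 in ESC low. In iPSC it had 5.24, 5.07 and 5.21 in the high arrays, against 5.41, 5.49 and 5.92 in the low arrays, a separation that ESC did not show. Over both cell types the difference of Cenpq was -0.26 ± 0.10 (adjusted p = 0.237). Cenpt itself differed by -0.01 ± 0.11.

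The remaining inner kinetochore genes were close to 0. Cenph and Cenpm, of the same complex as Cenpk, differed by -0.04 ± 0.06 and -0.05 ± 0.07, and Cenpi of that complex by 0.12 ± 0.08. Cenpo and Cenpp, of the same complex as Cenpq, differed by 0.09 ± 0.07 and -0.16 ± 0.10. Cenpc1, which encodes the scaffold that links CENP-A nucleosomes to the MIS12 complex, differed by 0.14 ± 0.12. Genes of 1 complex therefore had differences on both sides of 0.

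Of the 9 outer kinetochore genes, 0 were called in either direction by limma, beside 1.6% of all probe sets called higher and 0.905% lower. At an unadjusted p under 0.05, 4 were higher and 1 was lower, beside 15.6% of all probe sets in either direction. All 9 intervals lay within 0.5 of 0, but 4 of them lay wholly above 0 and that of Mis12 wholly below. The median difference was 0.12. Ndc80 and Nuf2, which encode the microtubule-binding arm of the NDC80 complex, had the high arrays above the low arrays in both cell types. Nuf2 had 7.58, 7.73 and 7.68 in ESC high, against 7.50, 7.44 and 7.41 in ESC low, and 7.63, 7.44 and 7.56 in iPSC high, against 7.23, 7.38 and 7.35 in iPSC low. Its difference was 0.22 ± 0.06 (adjusted p = 0.0965), and that of Ndc80 was 0.20 ± 0.07 (adjusted p = 0.156). The other arm of the complex, which faces the centromere, gave 0.22 ± 0.09 for Spc25 and 0.12 ± 0.09 for Spc24. Knl1, the scaffold on which BUB proteins are loaded, differed by 0.20 ± 0.08. In the MIS12 complex, which joins inner and outer kinetochore, Pmf1 differed by 0.10 ± 0.08, Dsn1 by -0.07 ± 0.07 and Nsl1 by -0.07 ± 0.08. Mis12 had 5.82, 5.58 and 5.93 in ESC high, against 5.98, 5.95 and 6.05 in ESC low, and 5.66, 5.91 and 5.59 in iPSC high, against 5.83, 5.96 and 5.85 in iPSC low. It was lower in the high array of all 6 numbered pairs, by -0.19 ± 0.08 on average (adjusted p = 0.271).

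Of the 6 genes of the fibrous corona, the RZZ complex and Spindly, 3 rose and 0 fell over both cell types. This stands beside 1.6% of all probe sets called higher and 0.905% called lower. In ESC alone and in iPSC alone 1 of the 6 rose, beside 0.305% and 0.349% of all probe sets. Cenpf, which encodes a large coiled-coil protein of the corona, stood at 7.94, 8.27 and 8.12 in ESC high, against 7.44, 7.59 and 7.27 in ESC low. In iPSC it stood at 8.23, 8.11 and 8.27 in the high arrays, against 7.40, 7.38 and 7.51 in the low arrays. The fractions were fully apart in both cell types. Its difference was 0.72 ± 0.08 (95% interval 0.55 to 0.89; adjusted p = 0.000619), a 1.65-fold higher level.

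Spdl1 encodes Spindly, the adaptor that recruits dynein to kinetochores. It stood at 7.10, 7.09 and 7.12 in ESC high, against 6.75, 6.88 and 6.59 in ESC low, and at 7.19, 7.06 and 7.08 in iPSC high, against 6.80, 6.62 and 6.71 in iPSC low. The high arrays were above the low arrays throughout, by 0.38 ± 0.07 (adjusted p = 0.0104; 1.30-fold). Cenpe encodes CENP-E, a plus-end-directed kinesin that moves chromosomes toward the spindle equator. It stood at 8.24, 8.42 and 8.50 in ESC high, against 7.96, 8.07 and 8.11 in ESC low, and at 8.46, 8.39 and 8.31 in iPSC high, against 8.14, 8.00 and 8.02 in iPSC low. These fractions did not overlap either, and the difference was 0.34 ± 0.07 (adjusted p = 0.0207; 1.26-fold). The call for Cenpe was the weakest of the 5: the adjusted p lay between 0.0507 and 0.0570 when any 1 of 6 arrays was left out, namely ESC high 3, ESC low 2, iPSC high 2, iPSC high 3, iPSC low 3 or iPSC low 4.

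The RZZ complex, through which Spindly is brought to the kinetochore, gave differences near 0. Zw10 differed by 0.05 ± 0.09, Zwilch by -0.04 ± 0.06 and Kntc1, which encodes the ROD subunit, by -0.09 ± 0.07. All 3 intervals lay within 0.5 of 0.

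Of the 3 checkpoint genes, Bub3 rose and 0 fell, beside 1.6% of all probe sets called higher and 0.905% called lower. The product of Bub3 carries BUB1 and BUBR1 to phosphorylated KNL1. Bub3 stood at 8.57, 8.68 and 8.57 in ESC high, against 8.40, 8.33 and 8.07 in ESC low. In iPSC it stood at 8.72, 8.68 and 8.66 in the high arrays, against 8.30, 8.36 and 8.11 in the low arrays. The fractions did not overlap in either cell type, and the difference was 0.39 ± 0.07 (95% interval 0.23 to 0.55; adjusted p = 0.0155; 1.31-fold). Mad1l1 and Mad2l1 encode the pair that generates the checkpoint's inhibitor at unattached kinetochores. Their differences were 0.13 ± 0.07 and 0.07 ± 0.06 (adjusted p = 0.433 for Mad1l1 and 0.688 for Mad2l1).

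**Figure D2:**
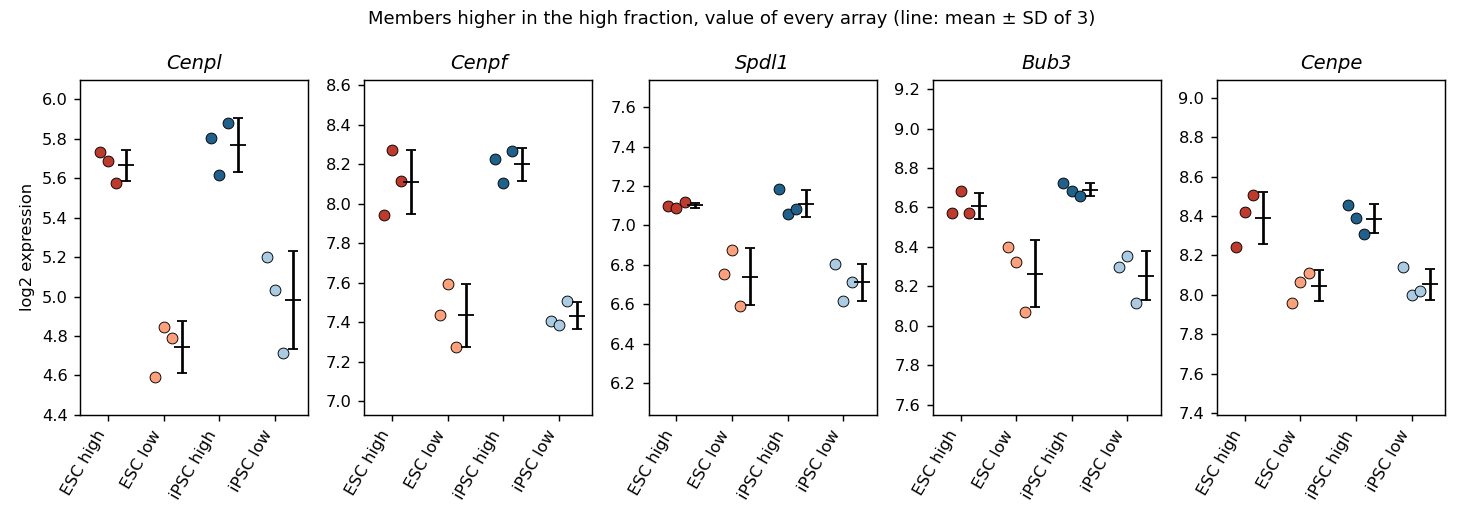
Log2 level of the 5 called genes in each of the 12 arrays, with the mean and SD of the 3 arrays of each group; within a cell type the high fraction stands left of the low fraction. The high arrays of Cenpl reach 5.58 to 5.88, against 4.59 to 5.20 in the low arrays, and no high array of any of the 5 genes overlaps the low arrays of its cell type.

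The SKA complex stabilises the grip of NDC80 on microtubules. Its 3 genes had similar differences, of 0.27 ± 0.09 for Ska2, 0.25 ± 0.09 for Ska1 and 0.21 ± 0.07 for Ska3, and 0 were called by limma (adjusted p = 0.15 for Ska2, 0.178 for Ska1 and 0.191 for Ska3). All 3 were above 0 at an unadjusted p under 0.05, which 15.6% of all probe sets passed in either direction. Ska2 stood at 6.94, 6.99 and 6.95 in ESC high, against 6.88, 6.56 and 6.36 in ESC low, and at 6.74, 6.85 and 6.54 in iPSC high, against 6.47, 6.58 and 6.54 in iPSC low. Its fractions were apart in ESC and overlapped in iPSC. Shugoshins protect centromeric cohesin from early cleavage. Sgo1 differed by 0.21 ± 0.09 and Sgo2a by 0.17 ± 0.09 (adjusted p = 0.29 and 0.409).

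Cenpj, the centriole gene, had 4.52, 4.50 and 4.79 in ESC high, against 4.50, 4.65 and 4.82 in ESC low. In iPSC it had 4.45, 4.57 and 4.55 in the high arrays, against 4.50, 4.32 and 4.70 in the low arrays. The groups overlapped, with a difference of -0.02 ± 0.09.

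Counted array by array, 8 of the 37 genes (21.6%) had every high array above every low array in both cell types, beside 1.98% of all probe sets. They were the 5 called genes with Cenpa, Ndc80 and Nuf2. The reverse held for 0 of the 37, beside 1.83% of all probe sets. The labels number the arrays, and in the 6 high and low arrays with the same number and cell type 11 genes (29.7%) were higher in the high array every time, beside 5.65% of all probe sets. The further 3 of those 11 were Knl1, Spc25 and Mad1l1. Cenpw, Mis12 and Kntc1 were lower in the high array of all 6 pairs, which is 8.11% of the members beside 7.01% of all probe sets.

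**Figure D3:**
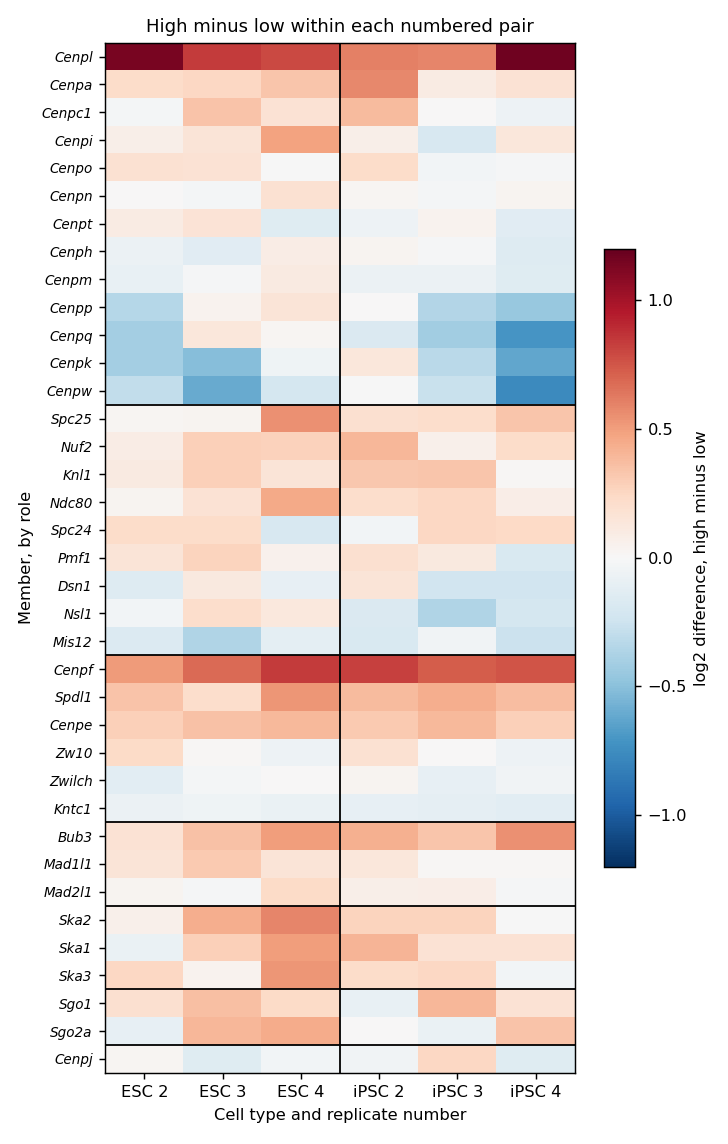
Heat map of the log2 difference, high minus low, of each of the 37 genes (rows, by role) in the 6 numbered pairs (columns, ESC pairs then iPSC pairs). The rows of Cenpl and Cenpf are the strongest positive ones, and Cenpw, Mis12 and Kntc1 are negative in all 6 columns.

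The promoters of the called genes were read beside these results because the genes share a direction. RefSeq promoter windows (GRCm38.p6, 250 bases before to 50 after the start) were found for 33 of the 37 genes, with 38 windows in all, and not for Nsl1, Spc24, Ska1 and Zwilch. They were searched on both strands for the cell cycle homology region (CHR; TTTGAA or TTCGAA), the CCAAT box (CCAAT) and an E2F core (GCGGGAA or GCGCGAA), elements known from cell cycle promoters. Matches of different motifs overlapped in 2 places in the members' windows. A gene was counted once if any of its windows held the letters. The promoters of the 4 called genes with a CHR match are given from 180 bases before the start to 20 bases from it, 5′ to 3′ on the gene's strand, with matches to any of the 3 motifs on either strand in capitals. Cenpl lies at chr1:161070587-161070786 on the plus strand, Cenpf at chr1:189688067-189688266 on the minus strand, Spdl1 at chr11:34833622-34833821 on the minus strand and Bub3 at chr7:131560190-131560389 on the plus strand.
Cenpl: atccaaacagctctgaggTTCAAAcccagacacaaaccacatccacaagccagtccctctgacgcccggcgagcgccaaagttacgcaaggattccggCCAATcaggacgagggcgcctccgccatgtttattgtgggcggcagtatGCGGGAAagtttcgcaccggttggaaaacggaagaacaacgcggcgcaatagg
Cenpf: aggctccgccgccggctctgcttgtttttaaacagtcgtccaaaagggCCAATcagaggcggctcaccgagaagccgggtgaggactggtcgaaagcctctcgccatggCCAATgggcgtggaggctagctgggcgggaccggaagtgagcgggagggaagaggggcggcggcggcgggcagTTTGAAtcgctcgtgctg
Spdl1: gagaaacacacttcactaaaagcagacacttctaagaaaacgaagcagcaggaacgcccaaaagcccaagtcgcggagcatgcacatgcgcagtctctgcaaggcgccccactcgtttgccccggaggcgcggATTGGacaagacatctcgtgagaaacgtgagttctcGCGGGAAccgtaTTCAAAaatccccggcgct
Bub3: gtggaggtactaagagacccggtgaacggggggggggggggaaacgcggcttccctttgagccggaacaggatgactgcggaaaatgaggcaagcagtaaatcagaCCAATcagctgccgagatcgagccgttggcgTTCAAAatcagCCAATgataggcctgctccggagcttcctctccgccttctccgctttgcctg

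In Cenpf the CHR letters were at positions 3 to 8 from the start, with CCAAT letters upstream at -71 to -67, and in Spdl1 they were read from the opposite strand at positions 2 to 7. In Bub3 and Cenpl they were also read from the opposite strand. In Bub3 they lay at -43 to -38 between 2 CCAAT boxes, and in Cenpl at -162 to -157, farther upstream than its CCAAT box and E2F core. CHR letters were present in 16 of 33 members with a window (48.5%), beside 21.7% of 27025 genes and 20.2% of 17491 protein-coding genes. CCAAT was present in 21 of 33 (63.6%), beside 41.1% of all genes and 42.3% of protein-coding genes. An E2F core was present in 11 of 33 (33.3%), beside 6.86% of all genes and 8.90% of protein-coding genes. Of the 5 called genes, 4 held CHR letters (Cenpe did not), 5 held CCAAT and 2, Cenpl and Spdl1, held an E2F core. The letters also occurred in genes that did not pass, such as Cenpn and Cenpw, which held CHR letters and CCAAT.

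In each cell type alone, Cenpl and Cenpf were the genes that rose, and 0 fell. In ESC this was 2 of 37, beside 0.305% of probe sets called higher and 0.0516% called lower. Cenpl was 0.92 ± 0.13 higher in ESC high than in ESC low (adjusted p = 0.00963) and Cenpf 0.68 ± 0.11 (adjusted p = 0.0241). The median difference was 0.16, with 27 of 37 above 0, beside 49% of all probe sets. With 1 array left out, the ESC difference stayed at 0.85 to 0.97 for Cenpl and 0.595 to 0.76 for Cenpf. The calls were less stable than the differences. Cenpl had an adjusted p of 0.0538 without ESC high 2 and 0.0560 without ESC low 2. Cenpf had 0.107 without ESC high 3, 0.0656 without ESC high 4, 0.103 without ESC low 2 and 0.0992 without ESC low 4.

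In iPSC 2 of 37 rose, beside 0.349% of probe sets called higher and 0.198% called lower. Cenpf was 0.77 ± 0.11 higher in iPSC high than in iPSC low (adjusted p = 0.0135) and Cenpl 0.79 ± 0.13 (adjusted p = 0.0222). Spdl1 and Bub3 gave 0.40 ± 0.10 and 0.43 ± 0.10, with an adjusted p of 0.0874 each. The median difference was 0.06, with 25 of 37 above 0, beside 50.8% of all probe sets. After each array was centred on its median, the iPSC median was -0.0008. Array medians were 3.57, 3.61 and 3.61 in iPSC high, against 3.57, 3.54 and 3.51 in iPSC low. Upper quartiles ran the other way, at 5.97, 5.93 and 5.96 in iPSC high, against 5.99, 6.00 and 6.07 in iPSC low. Centring at that level was not tested. Cenpl had an adjusted p of 0.0633 without iPSC high 2, 0.0973 without iPSC high 4, 0.0658 without iPSC low 3 and 0.0782 without iPSC low 4. Cenpf had 0.0755 without iPSC high 4, 0.0559 without iPSC low 3 and 0.0547 without iPSC low 4.

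High arrays lay above low arrays without overlap for 12 of the 37 genes (32.4%) in ESC, beside 6.71% of all probe sets, and for 12 (32.4%) in iPSC, beside 9.76%. In ESC alone these included Ska2, Ska3, Pmf1 and Cenpi, and in iPSC alone Ska1, Knl1, Spc25 and Mad1l1. The high arrays lay wholly below the low arrays for Cenpk and Mis12 in ESC (5.41% of the members, beside 6.36%), and for Cenpq in iPSC (2.70%, beside 9.57%).

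The difference between the 2 effects was tested directly, and limma called 0 of the 37 genes and 0 of 25206 probe sets (percentage called 0). At an unadjusted p under 0.05, the count was 0 of the 37 genes in either direction and 1100 of all probe sets. The iPSC effect minus the ESC effect was -0.14 ± 0.18 for Cenpl and 0.09 ± 0.16 for Cenpf. The most negative values were those of Nsl1, at -0.35 ± 0.16, and Cenpq, at -0.35 ± 0.20. Nsl1 stood at 6.26, 6.32 and 6.23 in ESC high, against 6.29, 6.11 and 6.11 in ESC low, and at 6.02, 6.16 and 5.91 in iPSC high, against 6.20, 6.52 and 6.13 in iPSC low. Across the 37 genes the ESC and iPSC differences had the same sign for 33 and correlated at r = 0.91, or r = 0.84 over the 35 genes other than Cenpl and Cenpf. These correlations are across genes, which are not independent, of arrays normalized together.

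**Figure D4:**
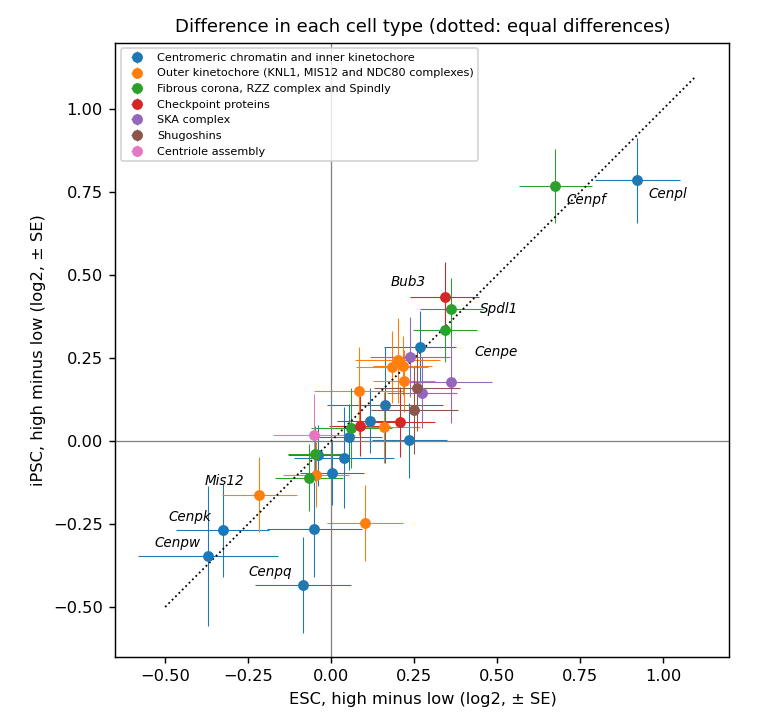
High minus low log2 difference in ESC (x axis) against that in iPSC (y axis) for the 37 genes, with standard errors as bars and the line of equality. Cenpl (0.92 in ESC, 0.79 in iPSC) and Cenpf (0.68 in ESC, 0.77 in iPSC) stand apart from the other genes at the upper right.

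Genes that work on the same structure but are not among the 37 were read from 3 lists. Of 18 checkpoint, chromosomal passenger and kinetochore regulator genes, 8 rose and 0 fell over both cell types, beside 1.6% and 0.905% of all probe sets, with a median difference of 0.24. Aurkb and Incenp, which encode the kinase and the scaffold of the chromosomal passenger complex that corrects faulty attachments, were higher by 0.68 ± 0.07 and 0.60 ± 0.06 (adjusted p = 0.000448 and 0.000593). Aurkb stood at 8.18, 8.27 and 8.11 in ESC high, against 7.36, 7.56 and 7.46 in ESC low, with no overlap. Plk1, a mitotic kinase, was higher by 0.58 ± 0.07 (adjusted p = 0.00134), and Cdc20, the anaphase activator that the checkpoint restrains, by 0.51 ± 0.08 (adjusted p = 0.00475).

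Of 9 measured genes of centromere assembly and further inner kinetochore subunits, 1 rose and 0 fell, beside the same 1.6% and 0.905%, and the median difference was 0.08. It was Hjurp, the chaperone that deposits CENP-A, at 7.41, 7.43 and 7.44 in ESC high, against 7.03, 7.12 and 7.15 in ESC low. In iPSC it had 7.60, 7.55 and 7.52 in the high arrays, against 7.23, 7.17 and 7.28 in the low arrays. The fractions were apart in both cell types, by 0.33 ± 0.06 (adjusted p = 0.00918). Among the other 8, Cenps differed by -0.18 ± 0.07, Cenpu by -0.17 ± 0.08 and Cenpv by 0.20 ± 0.12, and none of these passed.

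Of 10 cohesin and separase genes, limma called 0, beside 1.6% of all probe sets called higher and 0.905% lower, with a median difference of 0.02. At an unadjusted p under 0.05 there was 1, beside 15.6% of all probe sets. That 1 was Espl1, which encodes separase, the protease that opens cohesin at anaphase. Its difference was 0.28 ± 0.07 (adjusted p = 0.0553). Espl1 passed in 4 alternative fits, with an adjusted p of 0.0293 with a variance trend, 0.0310 without low probe sets, 0.0498 with array weights and 0.0457 without iPSC low 4.

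Genes of the G1/S transition were read for the cell cycle context of the fractions. Of 20 measured, 4 fell and 0 rose, beside 0.905% of all probe sets called lower and 1.6% higher. All 20 differences were below 0, where 50.9% of all probe sets were above 0, and the median was -0.14. Ccne2, which encodes cyclin E2, stood at 5.66, 5.32 and 5.57 in ESC high, against 6.44, 6.01 and 6.09 in ESC low. In iPSC it stood at 5.30, 5.53 and 5.36 in the high arrays, against 6.23, 6.18 and 6.25 in the low arrays. Its difference was -0.74 ± 0.09 (adjusted p = 0.00102), and the replication licensing gene Cdc6 gave -0.46 ± 0.08 (adjusted p = 0.00734). Ung, which encodes uracil-DNA glycosylase, gave -0.51 ± 0.09 (adjusted p = 0.0104), and Slbp, whose product binds histone mRNA, gave -0.32 ± 0.07 (adjusted p = 0.0267). The call for Slbp was lost, with an adjusted p of 0.0627 to 0.0700, when ESC high 3, ESC low 2, iPSC high 2, iPSC high 3, iPSC low 3 or iPSC low 4 was left out. The part that the distribution of cells over the cycle had in the kinetochore differences was not tested.

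Between the cell types, averaged over both fractions, 2 of the 37 genes, Kntc1 and Cenpo, were called lower in iPSC than in ESC and 0 higher, beside 1.96% of all probe sets called lower and 0.916% called higher. That fit takes the 6 arrays of a cell type as independent. Residuals of high and low arrays of 1 number correlated at 0.107 to 0.341, and for iPSC this pairing remains uncertain. With these pairs as a random block, chosen after seeing the data, 0 of the 37 were called (adjusted p = 0.0616 for Kntc1 and 0.0747 for Cenpo). Kntc1, the ROD subunit of RZZ, stood at 7.86, 8.02 and 7.85 in iPSC high and 7.96, 8.12 and 7.98 in iPSC low, against 8.16, 8.20 and 8.37 in ESC high and 8.22, 8.25 and 8.46 in ESC low. Every iPSC array was below every ESC array, which held for 1 of the 37 genes (2.70%), beside 1.75% of all probe sets. The difference, iPSC minus ESC, was -0.31 ± 0.07 (95% interval -0.47 to -0.16; adjusted p = 0.0375), or 0.806 of the ESC level.

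Cenpo, whose product belongs to a complex that binds Polo-like kinase at the inner kinetochore, stood at 6.61, 6.48 and 6.50 in iPSC high and 6.39, 6.51 and 6.51 in iPSC low. In ESC it stood at 6.77, 6.92 and 6.88 in the high arrays and 6.58, 6.75 and 6.88 in the low arrays. The highest iPSC array passed the lowest ESC array, and the difference was -0.30 ± 0.07 (95% interval -0.45 to -0.15; adjusted p = 0.0392), or 0.814 of the ESC level. Neither call was stable to leaving out 1 array: Kntc1 missed the threshold in 8 of the 12 such fits (adjusted p 0.0555 to 0.0999) and Cenpo in 10 of them (0.0552 to 0.0999).

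**Figure D5:**
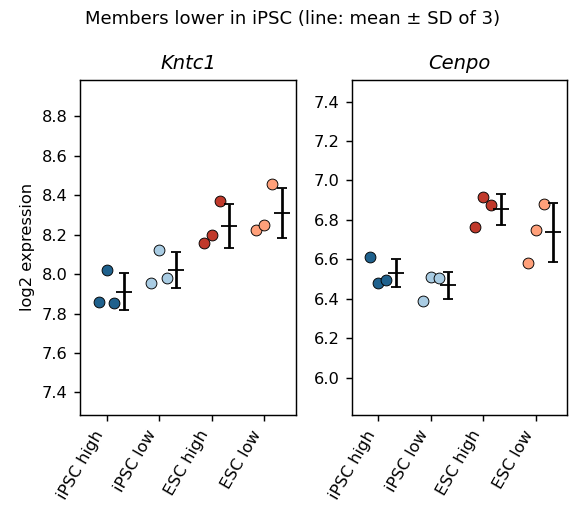
Log2 level of Kntc1 and Cenpo in each of the 12 arrays, with the mean and SD of the 3 arrays of each group, iPSC left of ESC. All 6 iPSC arrays of Kntc1 (7.85 to 8.12) lie below the 6 ESC arrays (8.16 to 8.46), while those of Cenpo overlap.

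The other 35 genes did not pass between the cell types, and for 33 of them the interval lay within 0.5 of 0. The median over the 37 was -0.02, with 15 above 0, beside 53.3% of all probe sets. The largest difference among the genes not called was that of Cenpc1, at -0.41 ± 0.12 (adjusted p = 0.115). Cenpl and Cenpf, which differed most between the fractions, differed between the cell types by 0.17 ± 0.09 and 0.04 ± 0.08. Spdl1, Bub3 and Cenpe differed between the cell types by -0.01 ± 0.07, 0.04 ± 0.07 and 0.00 ± 0.07.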

How the data were processed

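RNA of 12 sorted samples was measured on Affymetrix arrays. The deposited table holds log2 values, made by the authors with RMA in affy 1.36.1 and R 2.15.1 per the submitters' processing notes. For the chip definition and genome build, the sources used here give none. RMA normalized all arrays together, so a shift common to an array is largely removed, although array medians still ran from 3.51 to 3.61. No detection calls or probe intensities were used, and the number of arrays limits the precision.

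Of 25206 probe sets, 23185 had 1 gene symbol in the platform annotation and 2021 had none. All 37 symbols matched the RefSeq table (GRCm38.p6) by gene ID. Members and lists were chosen with earlier results of these data known.

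limma 3.58.1 (R 4.3.3) was fitted to all 12 arrays with 1 mean per group, no block and no variance trend, with Benjamini-Hochberg adjustment over 25206 probe sets and a threshold of 0.05. Errors are standard errors of this fit, and intervals are per gene at 95%. The fit was tested on simulated data with independent arrays and added differences larger than those of most members. That test does not cover smaller differences or paired arrays. The contrasts were high minus low in each cell type, their mean, their difference, and iPSC minus ESC. Given by array were called members, the 4 most negative and the 3 of lowest level; other members were added after their values were seen (Cenpn, Cenpa, Nuf2, Ska2 and Nsl1). Of other lists, up to 4 genes of lowest p were named, with Cenps, Cenpu and Cenpv added.

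Residuals of high and low arrays with 1 number in a cell type correlated at 0.107 to 0.341 in all 6 pairs, against -0.226 to 0.003 for other numbers. Residuals of a group sum to 0, which lowers the values of other numbers where those of the same number are positive. ESC and iPSC arrays of other numbers correlated at -0.158 to 0.167, which reaches above the iPSC pairs 2 and 3 (0.107 and 0.127). The numbers were taken, from the data, to pair fractions within a cell type, and for iPSC this remains uncertain. ESC and iPSC arrays of 1 number correlated at -0.095 to 0.131 and were not taken as pairs. The alternatives were 19: a replicate block, 1 cell type alone, a variance trend, median-centred arrays, no low probe sets, array weights, leaving out each of 12 arrays and, added after seeing the data for iPSC minus ESC, a random block (duplicateCorrelation) of those pairs. Python 3.11.15 and matplotlib 3.10.9 drew the figures.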

Additional observations from a re-analysis of the deposited data

How the results depend on the processing

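With the replicate number as a block, which pairs the fractions, the counts of members called higher were 5 over both cell types, 2 in ESC and 2 in iPSC, and the block changed no high-against-low call of a member. Between the cell types, where the numbers were not taken to pair, the block gave 3 members lower in iPSC, adding Cenpc1. With high and low arrays of 1 number as a random block (added after seeing the data; correlation 0.192), 0 members were called lower in iPSC. Across all 19 alternatives and the single genes followed, 859 values kept their direction and their side of the threshold, 47 lost a call, 5 gained one and 13 changed sign. Many of these values were of genes not called in the main fit, which cannot lose a call. With 1 array left out, the call was lost in 10 fits for Cenpo, 8 for Kntc1, and 6 each for Cenpe and Slbp.

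Over both cell types the members called higher were 4 to 5 when 1 array was left out and 6 with a variance trend, which added Cenpa. Cenpl, Cenpf, Spdl1 and Bub3 were called in every such fit. In ESC the count was 1 with the arrays of that cell type alone, where Cenpf had an adjusted p of 0.136, and 0 to 2 with 1 array left out. In iPSC it was 1 with that cell type alone, where Cenpl had 0.0692, and 0 to 2 with 1 array left out. The ESC median ran between 0.107 and 0.1597 with 1 array left out, and the iPSC median was -0.0008 with median-centred arrays. Members lower in iPSC numbered 0 to 2 with 1 array left out. The causes were not tested.

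The signs that turned were of differences near 0: Cenpn at -0.0062 with median-centred arrays, Cenpt at 0.0141 with array weights and -0.0629 to 0.073 with 1 array left out, Zw10 at -0.0182 to 0.0992 with 1 array left out (below 0 without ESC low replicate 2), and Cenpj at -0.0636 to 0.0316 with 1 array left out. The values carry no detection calls, so how far genes such as Cenpw and Cenpk lie above background is unknown.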
